A study of Mus musculus with 20 samples.

Results

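Ndfip1 and Ndfip2, the membrane adaptors of Nedd4-type ubiquitin ligases, and 7 ligases of that type (Nedd4, Nedd4l, Itch, Wwp1, Wwp2, Smurf1 and Smurf2) were followed in the mouse amygdala. These are 9 of the 29671 genes in the count table, matched by gene symbol, and each symbol stood in 1 row. The set was built around Ndfip1 because its level was higher in the stress lineage than in the no-stress lineage of the F2 generation. That difference chose the set, so values of the 9 genes from the F2 comparison are given as a description with no test.

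Ubiquitin is a small protein that marks other proteins for sorting, degradation or altered activity, and a ligase is the enzyme that picks the protein to be marked. Nedd4-type ligases carry a membrane-binding C2 domain, several WW domains that bind short proline-rich motifs, and a catalytic HECT domain. Many substrates lack such a motif, and the adaptors Ndfip1 and Ndfip2, which sit in Golgi and endosomal membranes, bind the WW domains, bring the ligase to its substrate and release it from an inhibited state. In neurons, these ligases act on ion channels, transporters, growth factor receptors and AMPA receptors, and Ndfip1 is known for its rise in injured neurons and for limiting metal uptake through the transporter Slc11a2.

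RNA was sequenced from 1.2 mm bilateral punches of the amygdala of 20 male C57B6 mice aged 84 postnatal days, with a stranded poly-A library for each mouse. The mice were bred in house from a Taconic strain and had not been used for behavioural tests. The F1 stress and F2 stress groups were the first and second generation from a lineage put through chronic unpredictable stress, and the F1 no-stress and F2 no-stress groups came from a non-stressed lineage. Each group held 5 mice. The labels name no litter, sire or batch, so p-values measure the spread between mice, and mice of 1 litter would be less independent than assumed. The deposited counts summed to between 13654890 and 13714805 in every library, so a common total had been set before deposit and the sequenced depth is unknown. Levels are given as CPM, counts scaled to a common library size with TMM factors, as mean ± SD over 5 mice.

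Markers of the labelled region were present throughout. The 10 markers of pallial excitatory neurons, the 10 of striatal medium spiny neurons and the 8 of central amygdala neurons had counts in all 20 libraries. Medium spiny neurons belong to the striatum, which borders the amygdala, and the summed level of their markers ran from 722 to 7309 CPM between libraries. The summed pallial markers ran from 1448 to 4116 CPM. Of the 8 choroid plexus and ependymal markers, 3 (Folr1, Aqp1 and Otx2) were too low to test, and Folr1 was at 0 in 9 libraries.

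All 9 genes passed the filter on low counts, with between 379 (Wwp2) and 9740 (Nedd4) counts in a library, and all are protein-coding genes of GRCm38. Ndfip1 (ENSMUSG00000024425) lies on chromosome 18 from 38410396 to 38465303 and Ndfip2 (ENSMUSG00000053253) on chromosome 14 from 105258573 to 105309298. Nedd4 (ENSMUSG00000032216) lies on chromosome 9 from 72662346 to 72749852, and Nedd4l (ENSMUSG00000024589) on chromosome 18 from 64887705 to 65217828. Itch (ENSMUSG00000027598) lies on chromosome 2 from 155133509 to 155226855. Wwp1 (ENSMUSG00000041058) lies on chromosome 4 from 19608303 to 19708993, and Wwp2 (ENSMUSG00000031930) on chromosome 8 from 107436365 to 107558595. Smurf1 (ENSMUSG00000038780) lies on chromosome 5 from 144876495 to 144965847, and Smurf2 (ENSMUSG00000018363) on chromosome 11 from 106820066 to 106920715. Exons of antisense genes overlap 553 exonic bases of Ndfip2, 277 of Nedd4l and 46 of Wwp1. Whether the counting used strand is not given in the sources used here, so reads there may belong to either gene. The longest transcripts differ in base composition, with a GC content of 38.0% in Ndfip2, 39.6% in Wwp1, 42.1% in Itch, 43.1% in Ndfip1, 45.9% in Nedd4, 46.1% in Nedd4l, 46.8% in Smurf2, 55.3% in Wwp2 and 55.5% in Smurf1.

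Nedd4 was the most abundant ligase and Ndfip1 the more abundant adaptor. Per kb of the longest transcript, the mean level over the 20 libraries was 114.4 CPM for Nedd4, 47.1 for Ndfip1, 26.0 for Nedd4l, 14.3 for Itch and 12.4 for Ndfip2. The remaining 4 ligases lay between 8.19 CPM per kb (Smurf2) and 9.29 (Wwp1). Nedd4 stood above Ndfip1, Ndfip1 above Nedd4l, and Nedd4l above Itch in all 20 libraries. Itch exceeded Ndfip2 in 14 of 20 libraries, Wwp1 exceeded Wwp2 in 10, Wwp2 exceeded Smurf1 in 15 and Smurf1 exceeded Smurf2 in 15, with overlapping ranges in each of these neighbouring pairs. With the union of all exons as the length, the first 3 genes kept their order (57.4, 32.5 and 11.5 CPM per kb), while Wwp1 (9.27) and Ndfip2 (8.35) came before Itch (7.80), and Wwp2 (4.51) came last.

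**Figure D1:**
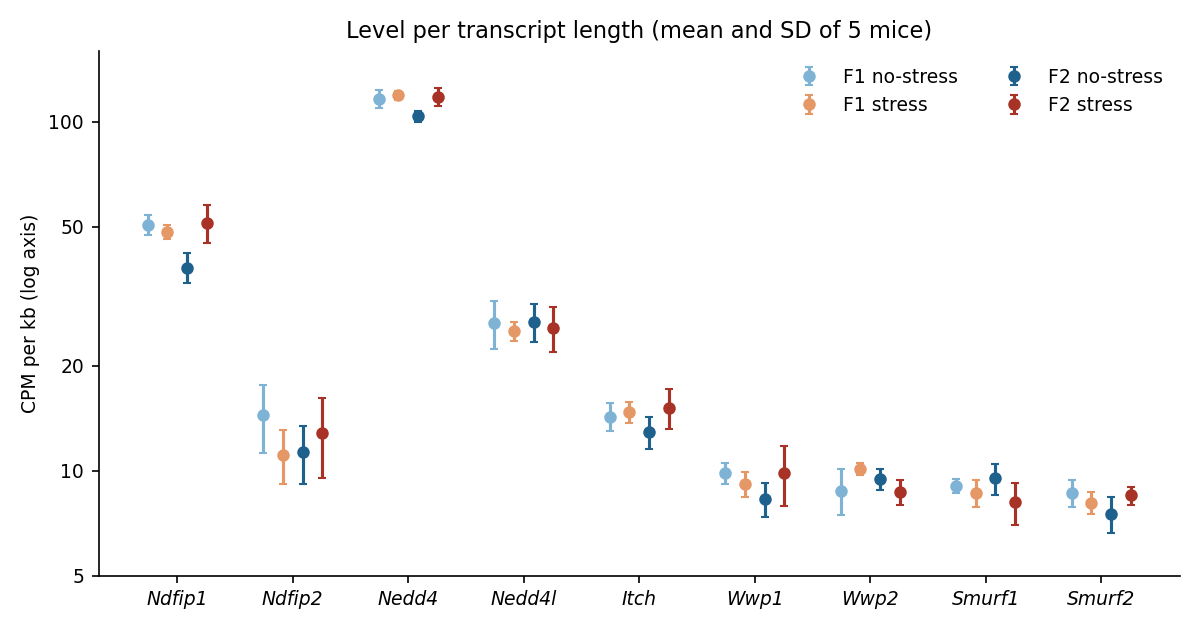
Mean level of each gene in CPM per kb of its longest transcript (log axis), with the SD of 5 mice as bars, for the 4 groups in 4 colours. Nedd4 lies above 100 CPM per kb in every group, Ndfip1 is next, and Wwp1, Wwp2, Smurf1 and Smurf2 lie together near 9.

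The 7 ligases summed to 193.5 ± 10.1 CPM per kb in F1 no-stress, 195.1 ± 7.12 in F1 stress, 178.3 ± 3.58 in F2 no-stress and 194.2 ± 10.2 in F2 stress mice (n = 5 each). In every library the sum in F2 no-stress mice (at most 183.5) was below the sum in F2 stress mice (at least 186.4). Among single genes tested, 4.61% had F2 groups that did not overlap, 2.25% with the stress group higher. No such share was computed for sums of genes. Most of the sum was Nedd4, whose F2 groups also did not overlap as counted. Nedd4 alone averaged 103.9 CPM per kb in F2 no-stress and 118.2 in F2 stress mice, while Nedd4l, Wwp2 and Smurf1 had lower means in F2 stress mice. The sum is given as counted, with no correction for the GC content of the transcripts. Nedd4 made up 60.2 ± 1.67% of the sum in F1 no-stress, 61.1 ± 0.551% in F1 stress, 58.3 ± 2.37% in F2 no-stress and 60.9 ± 2.67% in F2 stress mice, and Nedd4l had at most 17.1% in any library. Mice of a group differed most in Ndfip2 (SD of 0.32 on the log2 scale within groups) and least in Nedd4 (0.07).

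Ndfip1 was lowest in the F2 no-stress group. Its level in F2 no-stress replicates 16 to 20 was 147.7, 151.1, 181.9, 181.6 and 171.8 CPM. In F2 stress replicates 11 to 15 it was 266.3, 210.9, 219.8, 233.1 and 191.3 CPM. The F2 groups did not overlap, and every F2 no-stress library was also below every F1 library. F2 groups did not overlap for 4.61% of all genes tested, 2.25% with the stress group higher. The no-stress groups of the 2 generations did not overlap for 4.52%. In F1 no-stress replicates 6 to 10 the level was 214.0, 221.7, 243.7, 203.9 and 221.0 CPM, and in F1 stress replicates 1 to 5 it was 215.4, 200.7, 212.3, 202.2 and 223.7 CPM. The group means were 220.9 ± 14.6 (F1 no-stress), 210.9 ± 9.57 (F1 stress), 166.8 ± 16.5 (F2 no-stress) and 224.3 ± 27.98 CPM (F2 stress; SD, n = 5 each). The F2 stress mean was therefore within 1 SD of the F1 no-stress mean, and the group that stood apart was F2 no-stress. In punched tissue, fewer cells that make an RNA and less of that RNA in each cell cannot be told apart.

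**Figure D2:**
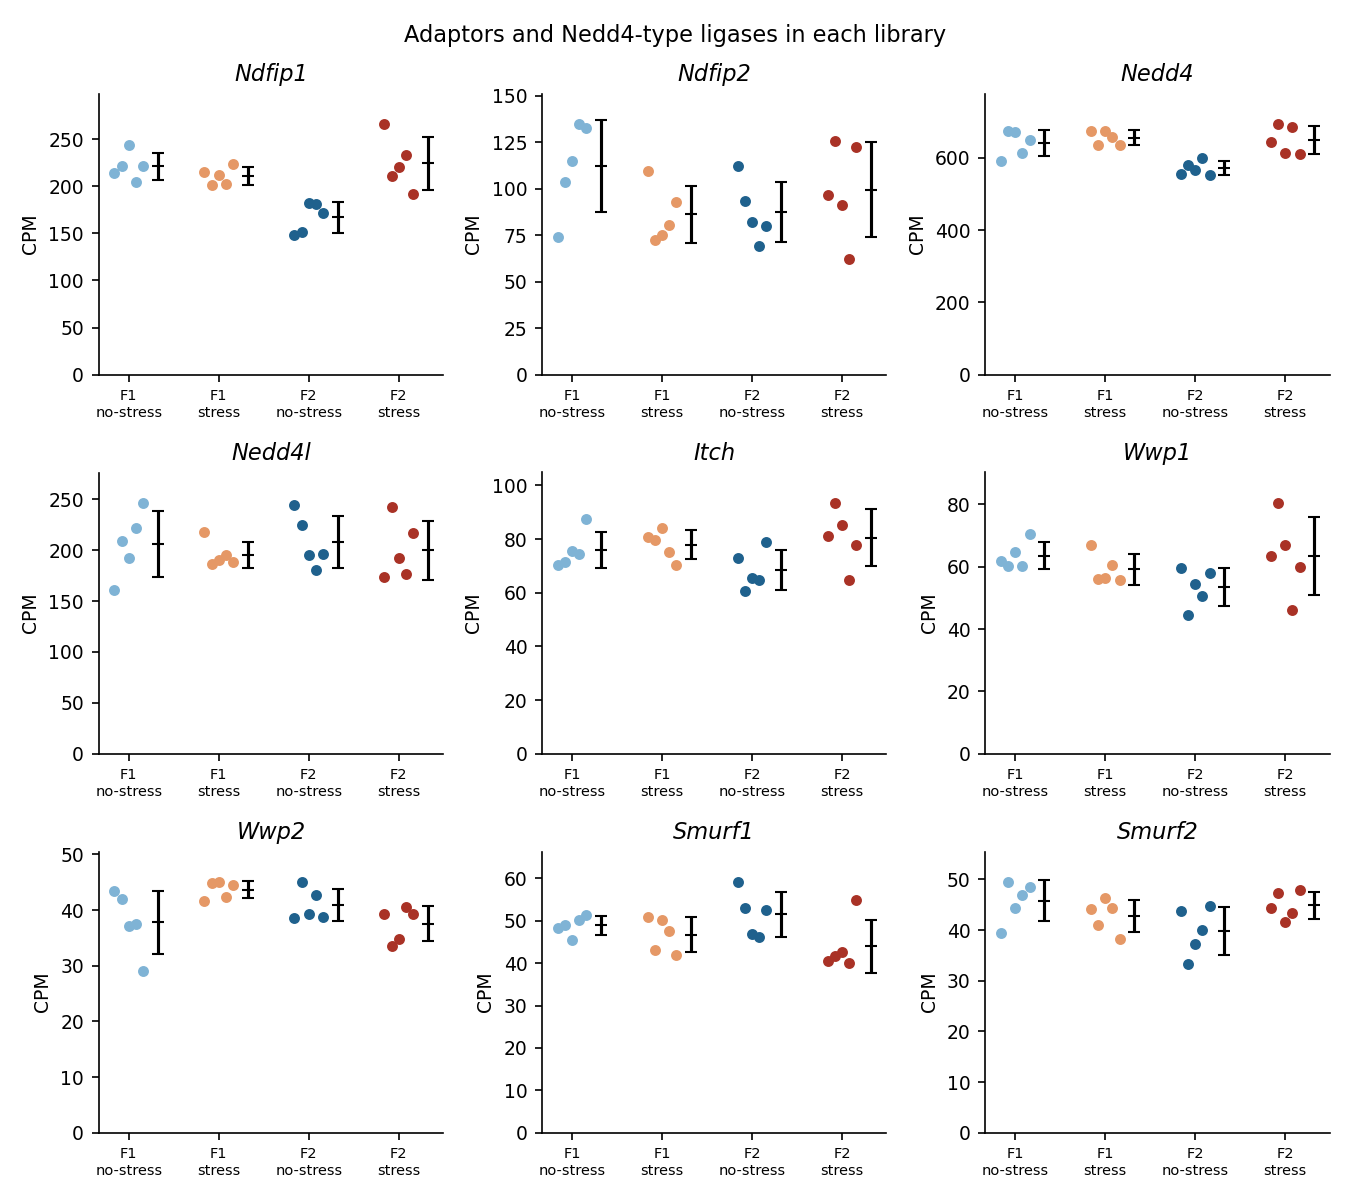
CPM of each of the 9 genes in each library, with each panel on its own axis from 0, points for single mice in order of replicate number, and the mean with SD of 5 mice as a bar beside them. In the Ndfip1 and Nedd4 panels the 5 F2 no-stress mice lie below the 5 F2 stress mice, while most other panels show overlapping groups.

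In the fit over all genes, the Ndfip1 difference between F2 stress and F2 no-stress mice was 0.43 ± 0.09 (log2 fold change ± SE), or 1.34-fold. The set was chosen for it, so no test is read from it. In the F1 generation, which the choice did not use, the difference was −0.07 ± 0.09, with a 95% interval from −0.25 to 0.11 (edgeR quasi-likelihood test, adjusted p = 0.845, n = 5 each). Among the 5 F1 stress libraries, 2 were below all F1 no-stress libraries and 0 were above them. The difference between the 2 lineage effects was 0.49 ± 0.12 and rests on the same F2 libraries. Between generations, Ndfip1 was 0.40 lower on the log2 scale in F2 no-stress than in F1 no-stress mice (−0.40 ± 0.09) with no overlap, and 0.09 ± 0.09 higher in F2 stress than in F1 stress mice with overlap. These values share the F2 libraries with the comparison that chose the set and are likewise a description.

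Libraries differed in how GC-rich genes were counted relative to GC-poor genes, and the F2 groups lay farthest apart in this measure. The measure is the median log2 deviation of GC-rich genes minus that of GC-poor genes in a library. It was 0.34 ± 0.27 in F2 no-stress and −0.19 ± 0.26 in F2 stress mice, against −0.07 ± 0.23 in F1 no-stress and −0.07 ± 0.14 in F1 stress mice. Across 10 bins of genes ordered by GC content, the median F2 difference ran from 0.17 (bin median 39.3% GC) to −0.39 (59.5% GC). In F2 no-stress replicates 16 to 20 the measure was 0.61, 0.44, 0.48, 0.27 and −0.10, beside Ndfip1 levels of 147.7, 151.1, 181.9, 181.6 and 171.8 CPM. In F2 stress replicates 11 to 15 it was −0.30, −0.38, −0.40, −0.10 and 0.21, beside Ndfip1 levels of 266.3, 210.9, 219.8, 233.1 and 191.3 CPM. The relation of Ndfip1 to this measure was not tested. In F1, the 10 bin medians lay between −0.01 and 0.02. After removal of the GC and length trend of each library, the Ndfip1 level was 219.6 ± 11.9 in F1 no-stress, 207.9 ± 13.4 in F1 stress, 176.1 ± 17.9 in F2 no-stress and 217.3 ± 25.3 CPM in F2 stress mice. The 2 F2 groups then overlapped, with a highest F2 no-stress value of 199.9 and a lowest F2 stress value of 196.5 CPM. That highest F2 no-stress value was also above the lowest F1 stress value, 199.8 CPM, and below the lowest F1 no-stress value, 207.1 CPM. The F2 log2 difference of Ndfip1 became 0.30 ± 0.08 with these trends as an offset in the fit, and only 8 genes of all those tested were then called in F2. The difference between F2 no-stress and F1 no-stress mice became −0.32 ± 0.08, and the F1 lineage difference −0.08 ± 0.08.

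**Figure D3:**
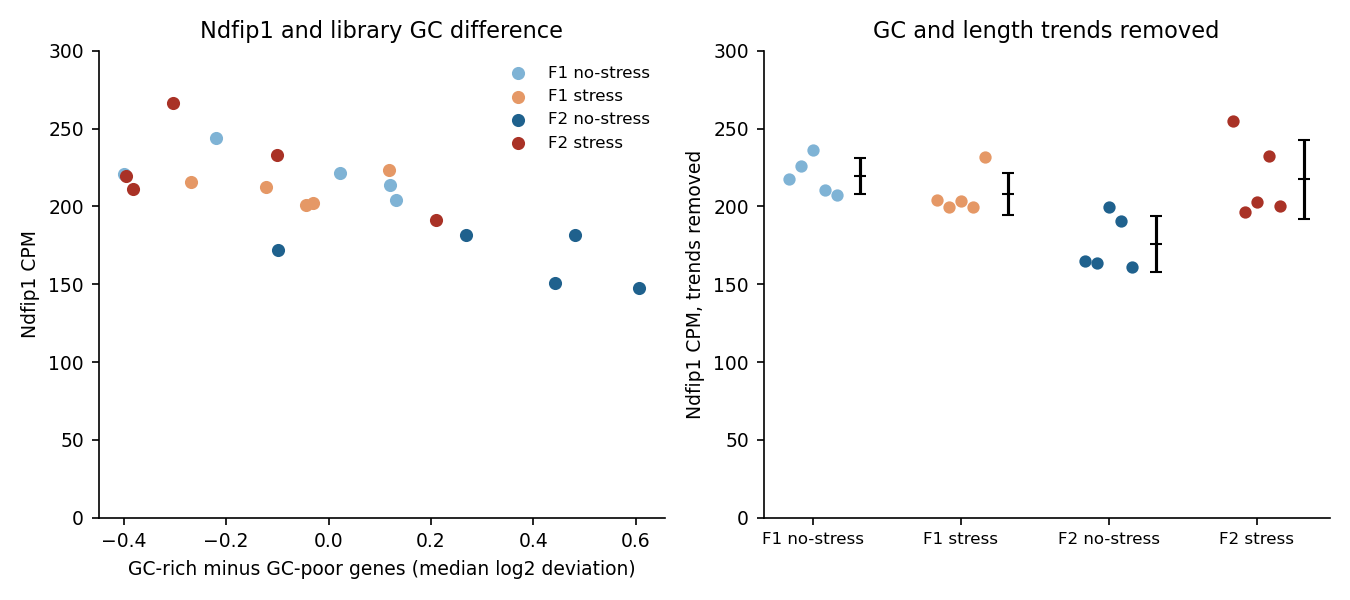
Left, Ndfip1 CPM of each library against the median log2 deviation of GC-rich minus GC-poor genes in that library; right, Ndfip1 CPM with each library's GC and length trend removed, with mean and SD of 5 mice. On the left, 4 of the 5 F2 no-stress libraries lie at the right end, above 0.2; on the right, the 2 F2 groups overlap near 200 CPM.

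Ndfip2, the second adaptor, varied widely in every group. Its level was 74.3, 103.7, 115.0, 135.1 and 132.8 CPM in F1 no-stress replicates 6 to 10 and 109.8, 72.8, 75.3, 80.5 and 93.0 CPM in F1 stress replicates 1 to 5. The groups overlapped, although 3 F1 no-stress mice were above every F1 stress mouse. The F1 difference was −0.38 ± 0.19 on the log2 scale (95% interval −0.77 to 0.01, edgeR adjusted p = 0.739, n = 5 each). With 1 surrogate variable in the model it was −0.05. In F2, Ndfip2 averaged 87.6 ± 16.4 CPM in no-stress and 99.7 ± 25.8 in stress mice, with overlapping groups and a log2 difference of 0.19 ± 0.19. Ndfip1 thus had F2 groups that did not overlap and Ndfip2 did not, and a difference between the adaptors was not tested.

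Among the 7 ligases, only Nedd4, the founding member of the family, had F2 groups that did not overlap. Nedd4 was at 555.8, 581.1, 567.0, 600.3 and 551.3 CPM in F2 no-stress replicates 16 to 20 and at 644.8, 694.5, 612.7, 685.4 and 611.5 CPM in F2 stress replicates 11 to 15. Every stress library was above every no-stress library, and the log2 difference was 0.19 ± 0.06. With the GC and length offset it was 0.12 ± 0.07, and with the trends removed the level was 590.6 ± 44.4 CPM in F2 no-stress and 642.2 ± 39.2 in F2 stress mice. The 2 F2 groups then overlapped, with a highest F2 no-stress value of 617.9 and a lowest F2 stress value of 576.6 CPM. Of all genes tested, 4.61% had F2 groups that did not overlap as counted, 2.25% with the stress group higher. In F1 the level was 591.9 to 674.4 CPM in no-stress and 634.6 to 675.5 in stress mice, a log2 difference of 0.03 ± 0.06 (edgeR adjusted p = 0.894, n = 5 each) that was −0.01 with the GC and length offset. F2 no-stress mice had less Nedd4 than F1 no-stress mice in 4 of 5 libraries, with a log2 difference of −0.17 ± 0.06 (edgeR adjusted p = 0.155). By DESeq2 this difference was −0.18 with an adjusted p of 0.019, and with the GC and length offset −0.13 with an edgeR adjusted p of 0.422. The Ndfip1 to Nedd4 ratio of CPM, which is not per length and is read only between groups, was 0.345 ± 0.016 in F1 no-stress, 0.322 ± 0.018 in F1 stress, 0.292 ± 0.028 in F2 no-stress and 0.346 ± 0.044 in F2 stress mice. The ratio in F2 no-stress libraries (0.260 to 0.321) lay below that in F1 no-stress libraries (0.329 to 0.362). It overlapped the ratio in F1 stress (0.3071 to 0.3525) and F2 stress libraries (0.304 to 0.413). The ratio is as counted, and no share over other gene pairs was computed. It uses the F2 libraries that chose the set and is a description.

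Nedd4l, a ligase best known for removing sodium channels from the cell surface, showed no group pattern. Its mean was 205.9 ± 32.3 CPM in F1 no-stress, 195.5 ± 12.7 in F1 stress, 208.1 ± 25.6 in F2 no-stress and 200.0 ± 29.0 in F2 stress mice, and every pair of groups overlapped. The F1 difference was −0.07 ± 0.11 on the log2 scale (95% interval −0.31 to 0.16, edgeR adjusted p = 0.869, n = 5 each). The F2 difference was −0.06 ± 0.11.

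Itch and Wwp1 had higher means in F2 stress than in F2 no-stress mice, with overlapping groups. Itch, a ligase that restrains immune activation and acts on Jun proteins, was at 68.6 ± 7.35 CPM in F2 no-stress and 80.5 ± 10.6 in F2 stress mice, a log2 difference of 0.23 ± 0.09. Wwp1, known for acting on Klf and p63 transcription factors, was at 44.6 to 59.6 CPM in F2 no-stress and 46.0 to 80.5 in F2 stress mice, and 4 of 5 stress libraries exceeded every no-stress library (0.25 ± 0.11). Both have GC-poor transcripts, and with the GC and length offset these F2 differences were 0.11 for Itch and 0.14 for Wwp1. In F1, the lineage difference was 0.04 ± 0.09 for Itch and −0.10 ± 0.11 for Wwp1 (edgeR adjusted p = 0.920 and 0.819, n = 5 each). Between generations, Wwp1 was lower in all 5 F2 no-stress libraries than in any F1 no-stress library (60.1 to 70.5 CPM). The log2 difference was −0.25 ± 0.11 and did not pass the test (edgeR adjusted p = 0.221). The no-stress groups of the 2 generations did not overlap for 4.52% of all genes tested. With the GC and length offset the Wwp1 difference was −0.17 ± 0.11. With the trends removed these groups overlapped, with a highest F2 no-stress value of 67.8 and a lowest F1 no-stress value of 62.4 CPM.

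Wwp2, a ligase of the transcription factor Oct4, had the smallest p of the 9 genes in F1 but did not pass the test. It was at 43.5, 42.1, 37.1, 37.6 and 29.0 CPM in F1 no-stress replicates 6 to 10 and at 41.6, 44.8, 45.1, 42.4 and 44.6 CPM in F1 stress replicates 1 to 5. The groups overlapped, and the lowest value belonged to a no-stress mouse. The log2 difference was 0.21 ± 0.09 (unadjusted p = 0.0339, edgeR adjusted p = 0.739, n = 5 each). In F2 the difference had the opposite sign, −0.12 ± 0.09, but was 0.10 with the GC and length offset. F2 stress mice (33.6 to 40.6 CPM) were all below F1 stress mice (at least 41.5 CPM) as counted. The log2 difference was −0.22 ± 0.09 and did not pass the test (edgeR adjusted p = 0.670). With the GC and length offset it was −0.13 ± 0.08. With the trends removed the 2 stress groups overlapped, with a highest F2 stress value of 44.2 and a lowest F1 stress value of 41.4 CPM. As counted, the F2 stress and F1 stress groups did not overlap for 0.777% of all genes tested, and the 2 no-stress groups for 4.52%.

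Smurf1 and Smurf2 act on receptors and Smad proteins of TGF-beta and BMP signalling. Smurf1 was at 40.5, 41.7, 42.7, 40.0 and 54.8 CPM in F2 stress replicates 11 to 15 and between 46.1 and 59.2 CPM in F2 no-stress mice. Thus 4 of 5 stress libraries were below every no-stress library, and replicate 15 was above 4 of the no-stress libraries. The F2 log2 difference of Smurf1 was −0.23 ± 0.09, −0.32 without F2 stress replicate 15, and 0.02 ± 0.08 with the GC and length offset. Smurf2 was at 39.8 ± 4.66 CPM in F2 no-stress and 44.9 ± 2.67 in F2 stress mice, a log2 difference of 0.17 ± 0.09. In F1 the lineage differences were −0.06 ± 0.09 for Smurf1 and −0.10 ± 0.09 for Smurf2 (edgeR adjusted p = 0.859 and 0.776, n = 5 each). Smurf1, Wwp2 and Nedd4l were the ligases with a negative F2 difference as counted. With the offset the signs of Smurf1 and Wwp2 turned, and Nedd4l stayed negative (−0.10). A relation of the sign to the GC content of the transcripts was not tested.

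**Figure D4:**
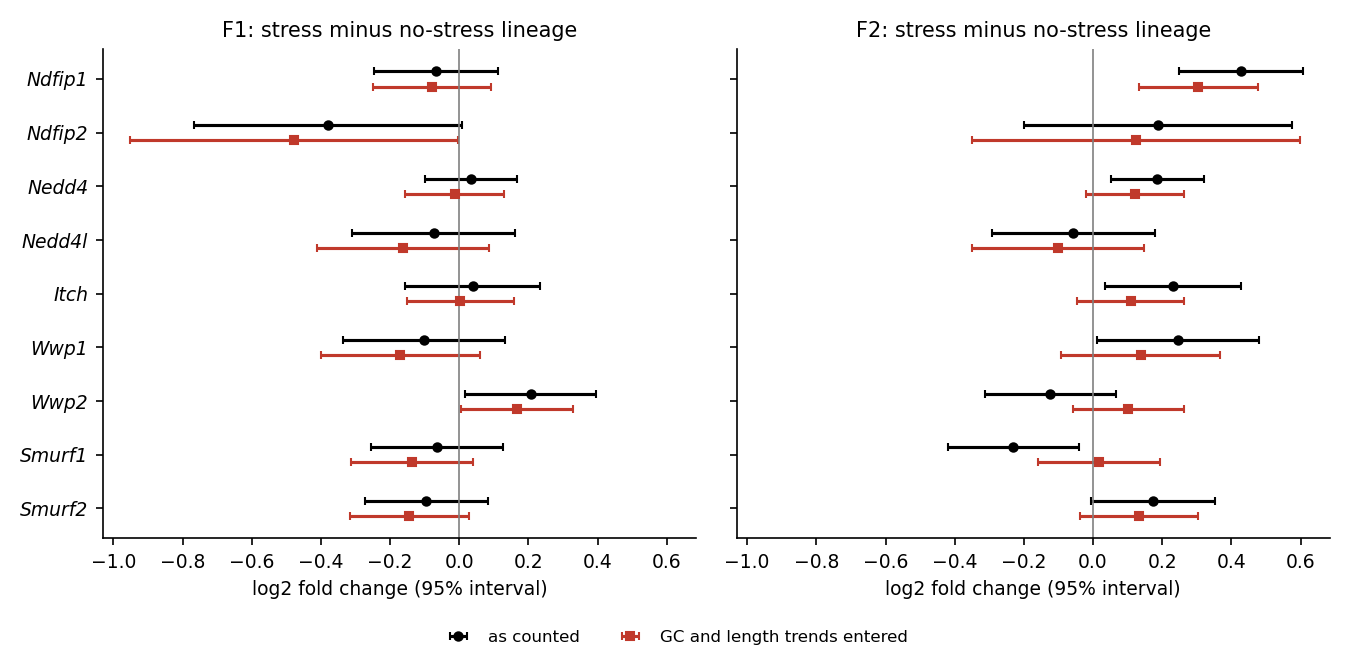
Log2 fold change of stress against no-stress lineage for each gene in F1 (left) and F2 (right) with 95% intervals, from counts as deposited (black circles) and with the GC content and length trends of each library entered (red squares). In F1 no gene passed the adjusted test; in F2 the Smurf1 and Wwp2 values move across 0 and the Ndfip1 value moves from 0.43 to 0.30.

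In the F1 comparison, 0 of the 9 genes passed the test (edgeR quasi-likelihood test, adjusted p below 0.05), where 0% of the 16727 genes tested passed. At an unadjusted p below 0.05 there was 1 of the 9 genes, Wwp2, and 1030 (6.16%) of all genes. DESeq2 called 2 genes of all those tested and limma-voom 0, none of them among the 9. The F1 groups overlapped for all 9 genes, while 1.24% of all genes had F1 groups that did not overlap. The median log2 difference was −0.07 over the 9 genes and 0.004 over all genes. In F2, 1 of the 9 genes (Ndfip1) was called, where 7.92% of all genes were called, 2.64% higher and 5.28% lower. The set was chosen from this comparison, so nothing is read from that count. The difference between the lineage effects was called for 1 of 9 (Ndfip1), where 2.52% of all genes were called, and is a description for the same reason.

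In the comparison of F2 no-stress with F1 no-stress mice, 0 of the 8 genes other than Ndfip1 were called by edgeR, where 2% of all genes were. At an unadjusted p below 0.05 there were 3 of these 8: Nedd4, Wwp1 and Smurf2 (log2 difference −0.20 ± 0.09, edgeR adjusted p = 0.192), where 20.2% of all genes were below it. By DESeq2, Nedd4 alone of the 8 was called. The 335 calls among all genes fell to 9 with the GC and length offset, and to 0 without F1 no-stress replicate 8, without F1 no-stress replicate 10 or without F2 no-stress replicate 17. In the comparison of F2 stress with F1 stress mice, 0 of 9 genes were called, where 0.012% of all genes were, and 1 of 9 (Wwp2) had an unadjusted p below 0.05, as did 6.99% of all genes.

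Genes that work with these ligases were read from lists of known partners, none of which had a called gene in F1. The smallest F1 p in each list belonged to the deubiquitinase gene Usp9x (log2 difference 0.28) and to N4bp2 (0.69) among 27 adaptors and regulators, and to the metal transporter gene Slc11a2 (0.15) and the growth factor receptor gene Fgfr1 (0.33) among 34 substrates. They belonged to Id4 (−0.44) and Ski (−0.25) among 26 TGF-beta and BMP genes, to Hectd4 (0.27) and Herc2 (0.22) among 18 other HECT ligases, and to the ubiquitin fusion gene Rps27a (−0.30) and the activating enzyme gene Uba6 (0.18) among 16 genes of ubiquitin, its activating enzymes and its conjugating enzymes. The edgeR adjusted p ran from 0.739 to 0.740 for these 10 genes. At an unadjusted p below 0.05 there were 1, 0, 0, 2 and 1 genes in these 5 lists. DESeq2 called 0 in each.

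In F2, the ubiquitin and conjugating enzyme list had 4 of 16 genes higher and 0 lower, where 2.64% of all genes were called higher and 5.28% lower. The lists were chosen with earlier results of these data known, and the counts are given as a description. The 4 genes were Ube2e1 (log2 difference 0.36 ± 0.08, edgeR adjusted p = 0.0129), Ube2d3 (0.28 ± 0.07, 0.0196), Ube2d2a (0.34 ± 0.09, 0.0277) and Ube2e3 (0.42 ± 0.12, 0.0333), which encode E2 enzymes that pass ubiquitin to ligases. The list's median log2 difference was 0.21 and its median GC content 43.8%, while the median over all genes was 0.001. The polyubiquitin gene Ubb (−0.13) did not pass the test. Without F2 stress replicate 11, F2 no-stress replicate 16 or F2 no-stress replicate 17, 1 gene of this list was called, and without F2 stress replicate 12 or 13, 2 were. Without F2 stress replicate 15, 7 were called higher and 1 lower. With the GC and length offset, 0 were called, and the values were 0.21 for Ube2e1, 0.33 for Ube2d3, 0.25 for Ube2d2a and 0.30 for Ube2e3.

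Of 34 substrates tested in F2, 0 rose and 4 fell, beside the 2.64% of all genes called higher and 5.28% called lower. Junb, a transcription factor subunit ubiquitinated by Itch and induced by neuronal activity, fell by 1.24 ± 0.23 on the log2 scale (edgeR adjusted p = 0.00739). Dvl1, a Wnt signal transducer (−0.50 ± 0.10, adjusted p = 0.0114), the receptor gene Notch1 (−0.58 ± 0.14, adjusted p = 0.0201) and Dvl2 (−0.63 ± 0.16, adjusted p = 0.0209) also fell. All 4 have GC-rich transcripts, and with the offset 0 were called, with values of −0.77 for Junb, −0.12 for Dvl1, −0.23 for Notch1 and −0.31 for Dvl2. Without F2 stress replicate 11 or 12, 2 substrates were called. The list's median was 0.03. Among adaptors and regulators 1 of 27 rose, Rnf11 (0.29 ± 0.08, edgeR adjusted p = 0.0326), a RING protein that binds Nedd4-type ligases. Among TGF-beta and BMP genes 1 of 26 rose, Smad2 (0.33 ± 0.10, edgeR adjusted p = 0.0485). Among other HECT ligases 1 of 18 rose, the Angelman syndrome gene Ube3a (0.32 ± 0.09, edgeR adjusted p = 0.0362). A single call in lists of this size is near the share over all genes. The medians of these 3 lists were 0.06, 0.03 and −0.02. With the offset the values were 0.16 for Rnf11, 0.26 for Smad2 and 0.29 for Ube3a, and none was called. Without F2 stress replicate 11, F2 stress replicate 13 or F2 no-stress replicate 17, 0 genes of these 3 lists were called. With only the 2 F2 groups in the fit, 0 genes of any list and 0 of all genes were called.

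Likeness to Ndfip1 from mouse to mouse was ranked within groups over 12222 genes. The top of so long a ranking exceeds a few given ligases in any case, so no comparison between them is read. Over the 20 libraries, with each group's mean removed, the 5 genes most like Ndfip1 of 12222 with a mean of at least 5 CPM were Cacybp, which encodes a calcyclin-binding protein (Pearson's r = 0.92), the nucleolar gene Npm1 (0.91), the G protein gene Gnai1 (0.88), Ankra2 (0.88) and the mitochondrial channel gene Vdac3 (0.87). With the GC and length trends removed they were Cacybp (0.91), Tonsl (0.90), the neuronal splicing factor gene Ptbp2 (0.89), the splicing factor gene Prpf19 (0.87) and 2610002M06Rik (0.87). Libraries share these trends and their common total, so the values describe these libraries only. Of the ligases, Nedd4 was the most like Ndfip1 (r = 0.34, rank 2505; 0.51 with the trends removed and 0.74 without removal of group means). Smurf1 (−0.70, rank 12086) and Nedd4l (−0.56, rank 11714) were at the other end, and Ndfip2 had −0.36. With the trends removed the order changed: Wwp2 had 0.50 (from 0.02), Wwp1 −0.04, Ndfip2 −0.09, Smurf2 −0.10, Nedd4l −0.32, Itch −0.39 and Smurf1 −0.51.

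Several of the 9 genes varied with the level of striatal marker RNA in a punch, a relation tested after the data were seen. The striatal score was the mean log2 CPM of the 10 medium spiny neuron markers. It was 8.27 ± 0.73 in F1 no-stress, 7.53 ± 0.52 in F1 stress, 8.02 ± 0.68 in F2 no-stress and 7.54 ± 1.31 in F2 stress mice, with overlapping groups. With the 4 group means in the model, Ndfip2 rose by 0.34 ± 0.04 on the log2 scale per unit of score (edgeR quasi-likelihood test, adjusted p = 3.54e-06 over all genes, 20 libraries). The lowest Ndfip2 level, 62.4 CPM in F2 stress replicate 14, was in the library with the lowest score, 5.52. Leaving out any 1 library kept the slope of Ndfip2 between 0.32 and 0.38, with an adjusted p of at most 7.88e-05. Nedd4l rose by 0.16 ± 0.04 per unit (adjusted p = 0.00475, and at most 0.0213 with any 1 library left out), and Smurf1 by 0.12 ± 0.03 (adjusted p = 0.018). Without F2 stress replicate 15, the Smurf1 slope was 0.08 and did not pass the test (adjusted p = 0.156).

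In all, 3 of 9 genes rose with the striatal score and 0 fell, where 16.2% of all genes followed it, 8.46% upward and 7.7% downward. Ndfip1 did not pass this test, with a slope of −0.07 ± 0.04 (adjusted p = 0.237), nor did Nedd4 (−0.01 ± 0.03), whose slope was 0.004 without F2 stress replicate 15 and 0.01 without F2 stress replicate 14. Itch (0.08 ± 0.04) and Wwp1 (0.11 ± 0.05) passed with the GC and length offset only (0.10 and 0.14, adjusted p = 0.0154 and 0.0218), apart from Wwp1 without F2 stress replicate 15 (0.16, adjusted p = 0.0379). Without F2 stress replicate 14 and with no offset, the edgeR adjusted p was 0.778 for Itch and 0.768 for Wwp1. The lowest slopes with any 1 library left out were 0.03 and 0.04. A pallial score was followed by 0 of 9 genes, where 6.51% of all genes followed it, and an oligodendrocyte score by 0 of 9, where 5.09% did. At an unadjusted p below 0.05 these were 0 of 9 for the pallial score and 2 of 9 (Itch and Wwp1) for the oligodendrocyte score, where 22.5% and 18.1% of all genes were below it. With the striatal minus pallial score as a covariate, the F1 difference of Ndfip2 was −0.30 and the F2 difference of Ndfip1 0.44.

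**Figure D5:**
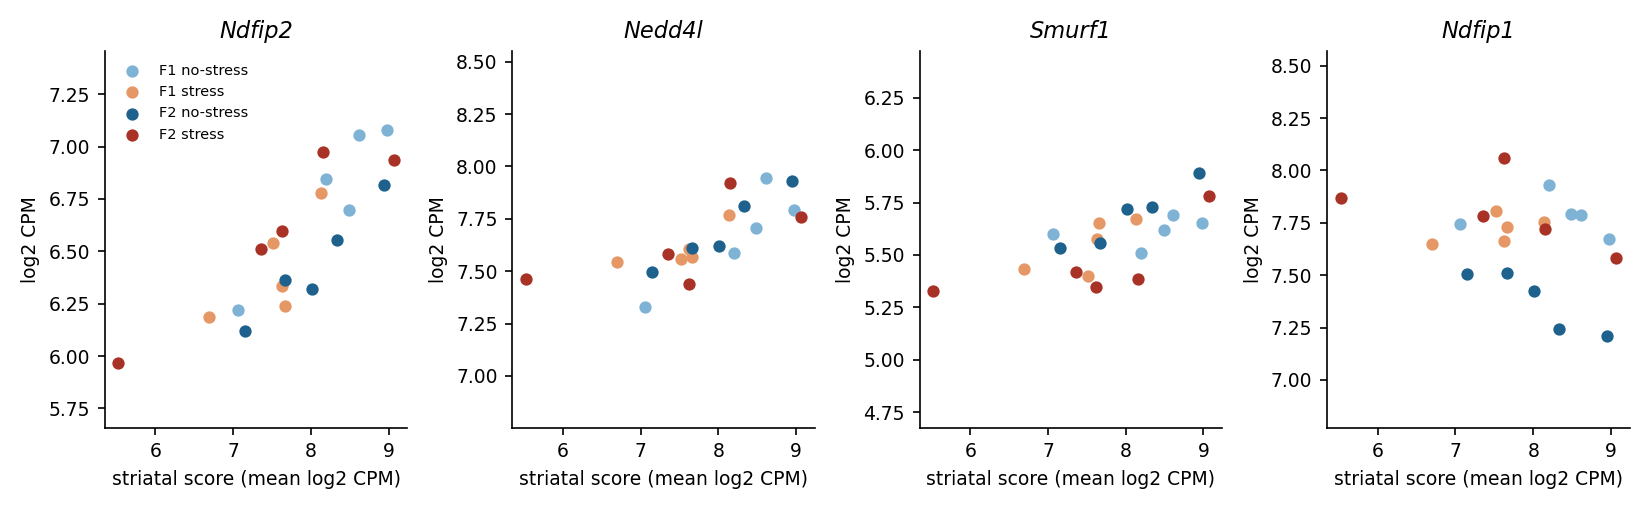
Log2 CPM of Ndfip2, Nedd4l, Smurf1 and Ndfip1 in each of 20 libraries against the striatal score (mean log2 CPM of 10 medium spiny neuron markers), with y axes of equal span and the 4 groups in colours. Ndfip2 rises along the score in all groups, Nedd4l and Smurf1 rise less, and Ndfip1 does not rise, with the F2 no-stress mice lowest at any score.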

How the data were processed

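Amygdala RNA of 20 mice was measured by stranded poly-A sequencing. Per the submitters' processing notes, the authors aligned reads with STAR 2.5.3a to GRCm38. The sources used here name no counting tool, annotation or strand setting. The authors deposited counts, whole numbers per gene and mouse, whose library totals (13654890 to 13714805) had been brought close together before deposit in a way not given in the sources used here.

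Counts were fitted with edgeR 4.0.16 (quasi-likelihood, robust, TMM factors 0.956 to 1.04) in R 4.3.3, with 16727 genes kept by filterByExpr, fitting 4 group means to the 20 libraries together. Calls needed an adjusted p (Benjamini-Hochberg, over all genes) below 0.05. There were 5 comparisons: stress against no-stress in F1 and in F2, their difference, and F2 against F1 in each lineage. GC content and length were those of the longest transcript in the GENCODE annotation of GRCm38 (16692 genes), and an offset held each library's spline trend (5 degrees of freedom). Log2 CPM used a prior count of 2. Other settings were DESeq2 1.42.0, limma-voom 3.58.1, other normalizations and filters, 1 surrogate variable (sva 3.50.0), a striatal minus pallial covariate, only the groups compared, and libraries left out. The tests of 3 marker scores were added after the data were seen.

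The genes and lists were chosen with earlier results of these data known. Named genes were the 9 genes, up to 3 called genes in each direction per list by smallest p (2 where none was called), and the 5 most like Ndfip1; Dvl2, Ube2e3 and Ubb were named after their values were seen. On data simulated without GC and length trends, 50 of 100 genes changed 1.5-fold and 82 of 100 changed 2-fold were called in F1, with 8 false calls. In F2 these were 48, 85 and 3. With the libraries' GC and length trends added and no offset, 39 and 78 changed genes were called in F1 and 46 and 77 in F2. With these trends, 110 unchanged genes were called in F2 without the offset and 4 with it. The score test called 174 of 200 genes set to follow the striatal score by 0.5 on the log2 scale per unit, with 6 false calls. Smaller slopes, as found for the 9 genes, were not simulated.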

Additional observations from a re-analysis of the deposited data

Results flagged for a closer look

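Of 36 groups of 5 libraries searched over the 9 genes, 2 held a library far from the others, and chance gives such a library in about 1 of 20 groups. Nedd4l in F1 stress replicate 1 was at 217.6 CPM, while the nearest of the other libraries of that group was at 195.0 CPM. That gap was 0.729 of the group's range, against a critical value of 0.71. This library also had the highest striatal score of its group, 8.13. Smurf1 in F2 stress replicate 15 was at 54.82 CPM, while the nearest was at 42.67 CPM, a gap of 0.822 of the range. This library had the highest striatal score of its group, 9.07 (8.16 in the next), and was the only F2 stress library with a positive GC difference, 0.21. The part of these values in the Nedd4l and Smurf1 levels was not tested.

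The Ndfip1 lineage effect differed between generations by 0.49 on the log2 scale (F2 minus F1), 0.38 with the GC and length offset. The gene was chosen for its F2 difference, so this is a description.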

How the results depend on the processing

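No paired analysis was possible because each mouse has its own number from 1 to 20 and the groups share none. Of 1386 alternative values for the log2 differences of the 9 genes over the 5 comparisons, 1321 kept their direction and side of the threshold, 29 changed sign, 12 gained a call and 24 lost one. All 24 losses were of Ndfip1: 2 in F2 (with the offset and with only the F2 groups), 8 in F2 against F1 no-stress and 14 in the difference of lineage effects. Calls were gained in F2 by Nedd4 (DESeq2, and without F2 stress replicate 15), Itch and Wwp1 (without F2 stress replicate 14, alone or with F2 no-stress replicate 20), Smurf1 (without F2 stress replicate 15) and Ndfip2 (surrogate variable). In F2 against F1 no-stress they were gained by Nedd4 (DESeq2) and Ndfip2 (surrogate variable), and in the difference of lineage effects by Wwp1 (without F2 stress replicate 14, alone or with F2 no-stress replicate 20). List counts moved by more than 1.5 times in 83 of their alternatives and not in 537.

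Genes called in F1 (0) were 2 by DESeq2, 1 with library totals and 0 to 1 with single libraries left out; members called were 0 throughout. Genes called in F2 (1324) were 2173 with 1 surrogate variable, 1992 by DESeq2, 8 with the offset, 2213 without 2 libraries (F2 stress replicate 14 together with F2 no-stress replicate 20), 737 with no filter, 0 with only the F2 groups, and 241 (without F2 stress replicate 11) to 2431 (without F2 stress replicate 15) with single libraries left out. Members called in F2 (1) were 2, 2, 0 and 3 under the first 4 of these, 0 with only the F2 groups, and 1 to 3 with single libraries left out (3 without F2 stress replicate 14 or 15). For F2 against F1 no-stress (335 genes), the counts were 681 with the surrogate variable, 992 by DESeq2, 9 with the offset, 631 without both libraries, 208 with library totals, 61 with no filter, 0 with only these groups and 0 to 725 with single libraries left out. Members there (1) were 2 with the surrogate variable and by DESeq2, 0 with the offset, library totals or only these groups, and 0 to 1 with single libraries left out. For F2 against F1 stress (2 genes), they were 6, 4 and 14 by DESeq2, with the offset and without both libraries, 0 with library totals or only these groups, 1 by limma-voom and 0 to 10 with single libraries left out. For the difference of lineage effects (421 genes), they were 1178 by DESeq2, 0 with the offset, 1643 without both libraries, 100 with no filter and 0 to 1501 with single libraries left out. Members there (1) were 0 with the offset, library totals or no filter, 2 without both libraries and 0 to 2 with single libraries left out; a fit of only the groups compared was not run there. Genes following a score ranged with single libraries left out from 1736 to 3053 (striatal), 332 to 1539 (pallial) and 558 to 1020 (oligodendrocyte), and members following the striatal score were 5 with the offset.

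Signs turned in the following cases. With the offset these were Nedd4 in F1 (−0.0136) and in F2 against F1 stress (0.00704), Smurf1 in F2 against F1 no-stress (−0.131) and stress (0.0209), Wwp2 in F2 against F1 no-stress (−0.0696), Smurf1 and Wwp2 in F2 (0.0159 and 0.102, from −0.23 and −0.124) and Smurf1 in the difference of lineage effects (0.152, from −0.165). With the surrogate variable they were Nedd4l in F1 (0.0786), F2 against F1 stress (−0.0204) and the difference of lineage effects (−0.0890), and Smurf1 in F1 (0.0227). With library totals the sign of Nedd4l in that difference also turned. With single libraries left out, ranges that crossed 0 were those of Itch (−0.0146 to 0.114), Nedd4 (−0.0385 to 0.00752) and Nedd4l (−0.0452 to 0.0797) in F2 against F1 stress, and Nedd4l in F2 against F1 no-stress (−0.0622 to 0.0882), in F2 (−0.135 to 0.00614) and in the difference of lineage effects (−0.0603 to 0.0948). For scores they were Itch (−0.0492 to 0.000255) and Wwp1 (−0.00565 to 0.0609) with the pallial, Nedd4 (−0.0285 to 0.0113) with the striatal, and Ndfip2 (−0.354 to 0.193), Nedd4l (−0.176 to 0.0454) and Wwp2 (−0.0607 to 0.0470) with the oligodendrocyte score. The cause was not tested. With 5 mice a group and an unknown depth, small changes could be missed. In simulation 50 of 100 changes of 1.5-fold were called in F1, and 39 with the libraries' GC and length trends added and no offset.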
